A study of Mus musculus with 22 samples.

Results

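Amino acid transporters of the plasma membrane were followed in NIH3T3 cells, an established line of mouse embryonic fibroblasts, after knockdown of Denr. The set was a list of 10 named solute carrier genes (Slc7a1, Slc7a5, Slc7a6, Slc7a11, Slc3a2, Slc38a1, Slc38a2, Slc1a4, Slc1a5 and Slc6a9) drawn together by function. The deposited tables hold 9 of the 10 among 10516 genes, and Slc7a5 is not analysed here. Of these 9 genes, Slc7a6 fell and Slc6a9 rose, each in RNA and in footprints on the coding sequence (CDS). In RNA 2.68% of all genes rose and 0.865% fell, and in footprints 5.47% and 4.55%. Not all of these calls held with each knockdown construct alone. The Slc6a9 RNA call was also lost without some single lysates. The translation efficiency of none of the 9 passed the test.

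The cells carried lentivirally delivered short hairpin RNAs (shRNAs) and had been selected with puromycin. The knockdown group held 6 lysates, 3 with Denr shRNA1 and 3 with Denr shRNA2. The control group held 5 lysates, of which 3 carried the scramble and 2 the Gfp hairpin. In both groups confluent cells were exposed to cycloheximide at 100 µg/ml for 2 min before lysis. Ribosome footprints (RPF-seq) and RNA (RNA-seq) were sequenced from every lysate, which made 22 libraries. The comparison asks which messages change in amount or in ribosome occupancy when a factor for translation reinitiation is depleted.

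DENR, with its partner MCTS1, helps a small ribosomal subunit that has just translated an upstream open reading frame (uORF) to start again at the CDS. Amino acid transporters are a natural group to read in such cells because many of them are transcribed under ATF4, whose own translation is governed by uORFs, and because the messages of Slc7a1 and others carry long, structured 5′ UTRs. The members fall into several functional classes. Slc7a1 (CAT-1) takes up arginine and lysine, whereas Slc3a2 (the 4F2 heavy chain, CD98) is a chaperone-like subunit that carries light chains such as Slc7a6 (y+LAT2) and Slc7a11 (xCT, the cystine/glutamate exchanger) to the surface. Slc1a4 (ASCT1) and Slc1a5 (ASCT2) exchange small neutral amino acids and glutamine, Slc38a1 and Slc38a2 (SNAT1 and SNAT2) accumulate neutral amino acids with sodium, and Slc6a9 (GlyT1) takes up glycine.

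Before the values, the upstream start codons of the members are given, since reinitiation acts through them. For each gene a GENCODE vM21 transcript (GRCm38) with a complete CDS was scanned for an AUG in the 5′ UTR followed by an in-frame stop and at least 9 nt long in all. Such a uORF was present in 5 of the 9 members, against 51.9% of 10368 genes scanned the same way, and none of them ran into the CDS. Slc7a6, Slc3a2, Slc38a2 and Slc1a4 had none. The 5′ UTRs ran from 134 nt in Slc7a6 to 1001 nt in Slc38a1, against a median of 191 nt for all genes, and 8 of the 9 were longer than that median. The annotated 5′ UTR had the length behind the deposited values only in Slc7a11, Slc1a4 and Slc1a5. For the other members the region counted differed from the region scanned, most in Slc38a1 (1640 nt counted, 1001 scanned) and Slc3a2 (483 counted, 274 scanned). In Slc6a9 the CDS differed as well (1986 nt counted, 1899 scanned), beside a 5′ UTR of 444 nt counted and 514 scanned. Any uORF on counted bases outside the scanned transcripts was not read.

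The start contexts of upstream AUGs in the 5 genes are shown with the AUG in capitals (as ATG) and 9 bases before it, to let a reader see how they differ around the positions that set initiation strength (a purine 3 bases before and a G right after the AUG).
Slc7a1 uORF: gcgcggctgATGaaac
Slc7a11 uORF: tggtgtgtaATGatag
Slc1a5 uORF: cccggatctATGccac
Slc38a1 uORF 2: tttatggtgATGgagt
Slc6a9 uORF 1: agggaggagATGggac
Slc6a9 CDS start: actgccaccATGgtag
Slc7a6 CDS start: ccatttaccATGgaag
The uORF of Slc7a1 was 174 nt long, spanned exons 1 and 2 between bases 148365186 and 148399836 of chromosome 5 (minus strand) and ended 38 nt before the CDS. That of Slc7a11 lay in exon 1 (chr3:50443466-50443573, minus strand, 108 nt) and that of Slc1a5 in exon 1 (chr7:16781581-16781622, plus strand, 42 nt). Slc38a1 had 7 uORFs when counted by start codon, all in exon 1. Its uORFs 1 and 2 share a frame and a stop codon, as do uORFs 3, 4 and 5. Of the 7, uORF 2 (chr15:96641861-96641902, minus strand, 42 nt) joins both favourable bases. Slc6a9 had 3 uORFs, of which uORF 1 (chr4:117835188-117835250, plus strand, 63 nt) also joins both, whereas the AUGs of Slc7a1 and Slc1a5 have neither.

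Short uORFs of Slc38a1 and Slc6a9 can be printed whole, from 3 bases before the AUG to the stop codon, with both codons in capitals.
Slc38a1 uORF 6: cgaATGaagagccagTGA
Slc38a1 uORF 7: catATGgcggcaaaaggaatttcgcggTAA
Slc6a9 uORF 2: ctgATGcaactttcccttTAA
Slc6a9 uORF 3: agtATGctcttgaggcctgttgtcTGA
Those of Slc38a1 lie at chr15:96641622-96641636 and chr15:96641272-96641298 and encode 4 and 8 codons. Those of Slc6a9 encode 5 codons at chr4:117835398-117835415 and 7 codons in a reading frame that starts in exon 1 at base 117835475 and stops in exon 2 at base 117843039. Its uORF 3 ended 66 nt before the CDS of the transcript scanned. Whether ribosomes used any of these frames was not read here, because the values cover the 5′ UTR as a whole.

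The knockdown itself was seen in every lysate. Denr RNA was 44, 43.2 and 34.4 RPKM (reads per kilobase of region and per normalized library size) with Denr shRNA1, and 15.5, 20.8 and 17.4 with Denr shRNA2. The 5 control lysates lay between 165 and 190. The libraries held 10927303 to 21649878 reads (RPF-seq) and 8514080 to 20109700 reads (RNA-seq) on the counted regions, and replicates differed by more than sampling noise. All 10 fibroblast markers were present, with a summed RNA level of 9019 to 11623 RPKM in knockdown and 8602 to 11025 in control lysates. Of the markers of other cell types, epithelial Cdh1 stayed at or under 4.05 RPKM and endothelial Cdh5 at or under 1.1, and those of blood cells were not among the genes. In such bulk lysates fewer cells with a message and less message per cell cannot be told apart.

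The members covered a wide range of expression in control cells. Slc38a2 was the most abundant message at 213 ± 17.6 RPKM (SD, n = 5), followed by Slc3a2 at 115 ± 7.67. Slc1a4 (40.7 ± 4.79), Slc38a1 (39.3 ± 1.13), Slc7a1 (38.1 ± 2.42) and Slc1a5 (37.1 ± 3.51) came next, and the ranges of neighbours among these 4 overlapped. Slc7a6 (27 ± 1.47), Slc6a9 (18.5 ± 2.4) and Slc7a11 (2.1 ± 0.402) followed, each apart from its neighbour in this order. Slc38a2 thus stood at the 92.4th percentile of all genes and Slc7a11, the cystine importer, at the 5.39th.

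Footprints on the CDS gave nearly the same ranking. Slc38a2 had 317 ± 17.7 RPKM and Slc3a2 175 ± 6.85, then Slc38a1 (65.5 ± 5.73), Slc1a4 (62.6 ± 6.17) and Slc7a1 (62.1 ± 3.95), whose ranges overlapped, and then Slc1a5 (44.8 ± 5.34) and Slc7a6 (39.3 ± 3.47), which overlapped each other. Slc6a9 (25.2 ± 3.68) and Slc7a11 (2.69 ± 0.371) were lowest. The translation efficiency (TE), the log2 ratio of footprint to RNA level on the CDS in the same lysate, averaged between 0.27 in Slc1a5 and 0.73 in Slc38a1 in control cells. All 9 members lay above the median of all genes at −0.076, at percentiles from 66.8 to 87.

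**Figure D1:**
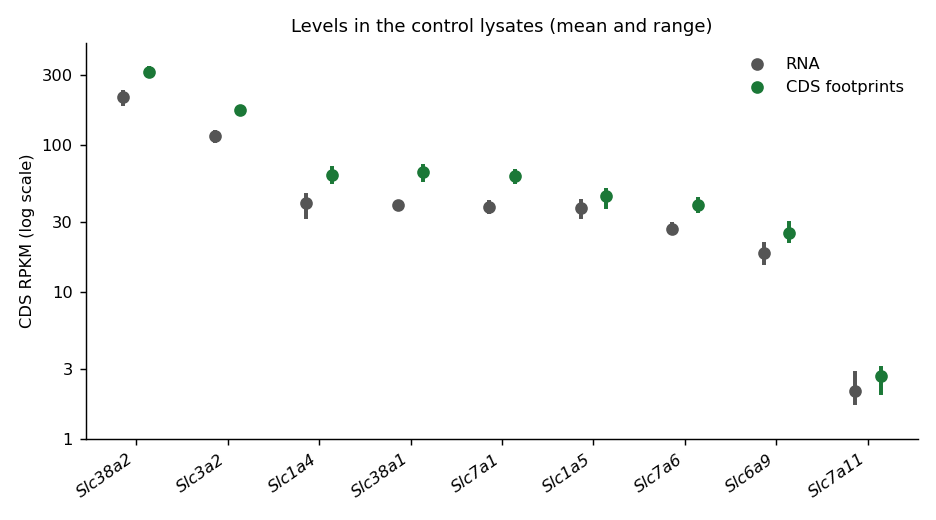
CDS level of each transporter gene in the 5 control lysates, in RPKM on a log axis, ordered by RNA level (grey, RNA-seq; green, footprints). Points are means and bars run from the lowest to the highest lysate; Slc38a2 and Slc3a2 stand apart at the top, 4 genes near 40 RPKM overlap in RNA, and Slc7a11 lies near 2.

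Changes were tested on log2(RPKM + 0.1) with limma over all genes, the 6 knockdown against the 5 control lysates. A gene was called at a Benjamini-Hochberg false discovery rate (FDR) below 0.1. These p-values, and those of the exact permutation test given for single genes, take each lysate as an independent unit. They do not take the hairpins as the unit of replication, although lysates with the same hairpin share it. In RNA, 1 member rose and 1 fell, where 2.68% of all genes rose and 0.865% fell. In CDS footprints, again 1 member rose and 1 fell, where 5.47% of all genes rose and 4.55% fell. The median change of the 9 members was −0.081 in RNA and 0.034 in footprints, against 0.027 and 0.0072 for all genes.

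Slc7a6, the y+LAT2 light chain (chr8:106168857-106198706, plus strand), was the member that fell. Its RNA was 20.4, 19.6 and 17.4 RPKM with Denr shRNA1, 21.5, 22.2 and 22 with Denr shRNA2, 26 and 25.4 with Gfp shRNA, and 28, 29 and 26.8 with scramble shRNA. No knockdown lysate came up to the lowest control. The log2 change was −0.40 ± 0.078 (SE), or 0.758 of the control level (adjusted p = 0.0208, limma, exact two-sided permutation p = 0.00216, the smallest that the splits of 11 lysates allow). Groups of lysates that do not overlap, with knockdown lower, were found for 1.04% of all genes in RNA. The fall was called with either hairpin alone (−0.50 with shRNA1, adjusted p = 0.0453, and −0.30 with shRNA2, adjusted p = 0.0742) and after each lysate was left out in turn.

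The footprints of Slc7a6 separated the hairpins. They were 21.8, 23.1 and 23.5 RPKM with Denr shRNA1, 33.3, 33.5 and 34 with Denr shRNA2, 37.7 and 35.9 with Gfp shRNA and 43.1, 36.9 and 42.9 with scramble shRNA. Again the groups did not overlap, a separation that 1.97% of all genes showed in this direction. The log2 change over both hairpins was −0.50 ± 0.13 (adjusted p = 0.0407, limma, exact permutation p = 0.00866). With shRNA1 alone it was −0.78 (adjusted p = 0.000812), whereas with shRNA2 alone it was −0.22 and was not called (adjusted p = 0.148). Without scramble replicate 1 the change was −0.46 and the call over both hairpins was narrowly lost (adjusted p = 0.103).

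The difference between the hairpins was itself tested. Slc7a6 footprints were higher with Denr shRNA2 than with shRNA1 by 0.56 ± 0.073 on the log2 scale (adjusted p = 0.000814, limma with the 4 shRNAs as groups), where 5.68% of all genes were higher in that contrast. In RNA the same contrast gave 0.20 ± 0.086 and was not called (adjusted p = 0.341, with 2.06% of all genes called), and in TE it gave 0.36 ± 0.12 (adjusted p = 0.972, with 0% of all genes called). From shRNA1 to shRNA2 Denr RNA itself fell by 1.18 on the log2 scale (adjusted p = 0.00197), so the larger fall of Slc7a6 came with the hairpin that left more Denr.

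Slc6a9, the glycine transporter GlyT1 (chr4:117834506-117875198, plus strand), was the member that rose. Its RNA was 28.6, 21.4 and 22.2 RPKM with Denr shRNA1, 24.3, 28.6 and 24.3 with Denr shRNA2, 21.2 and 20.8 with Gfp shRNA and 15.8, 17.5 and 17.1 with scramble shRNA. The groups did not overlap, but the lowest knockdown lysate and the higher Gfp lysate were nearly level. Knockdown was higher without overlap in 2.63% of all genes in RNA. The log2 change was 0.43 ± 0.10, or 1.35-fold (adjusted p = 0.0589, limma, exact permutation p = 0.00433). This call was lost with shRNA1 alone (0.38, adjusted p = 0.282), and also when any of the 3 shRNA2 or any of the 3 scramble lysates was left out, with adjusted p between 0.101 and 0.173.

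Slc6a9 footprints gave a firmer call. They were 31.1, 32.3 and 30.5 RPKM with Denr shRNA1, 34.1, 38.5 and 35.5 with Denr shRNA2, 28.8 and 29.6 with Gfp shRNA and 22.4, 22.9 and 22.3 with scramble shRNA. All knockdown lysates were above all controls, as in 2.48% of all genes. The log2 change was 0.42 ± 0.092, or 1.34-fold (adjusted p = 0.0228, limma, exact permutation p = 0.00216), and it was called after each of the 11 lysates was left out. With shRNA1 alone it was 0.32 and missed the threshold (adjusted p = 0.133).

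The controls of Slc6a9 differed from each other too. Gfp shRNA lysates had more Slc6a9 footprints than scramble lysates by 0.37 ± 0.073 on the log2 scale (adjusted p = 0.0177, limma), where 5.38% of all genes were higher in that contrast. That difference was 0.35 and no longer called without Gfp replicate 2 (adjusted p = 0.139). Against scramble shRNA alone the knockdown change was 0.57 in footprints (adjusted p = 0.0016) and 0.56 in RNA (adjusted p = 0.0177). That setting called 2651 of all 10516 genes in footprints and 940 in RNA. Mean log2 footprint levels were 4.97 with shRNA1, 5.17 with shRNA2, 4.87 with Gfp and 4.50 with scramble shRNA. In RNA the means were 4.64 in knockdown, 4.40 in Gfp and 4.08 in scramble lysates. The Gfp lysates thus lay closer to the knockdown than the scramble lysates did. A fit against Gfp shRNA alone was not run. Denr shRNA2 also gave more Slc6a9 footprints than shRNA1, by 0.20 ± 0.065 (adjusted p = 0.0972), a call that no lysate of these hairpins could be left out of without losing it (adjusted p from 0.105 to 0.331).

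**Figure D2:**
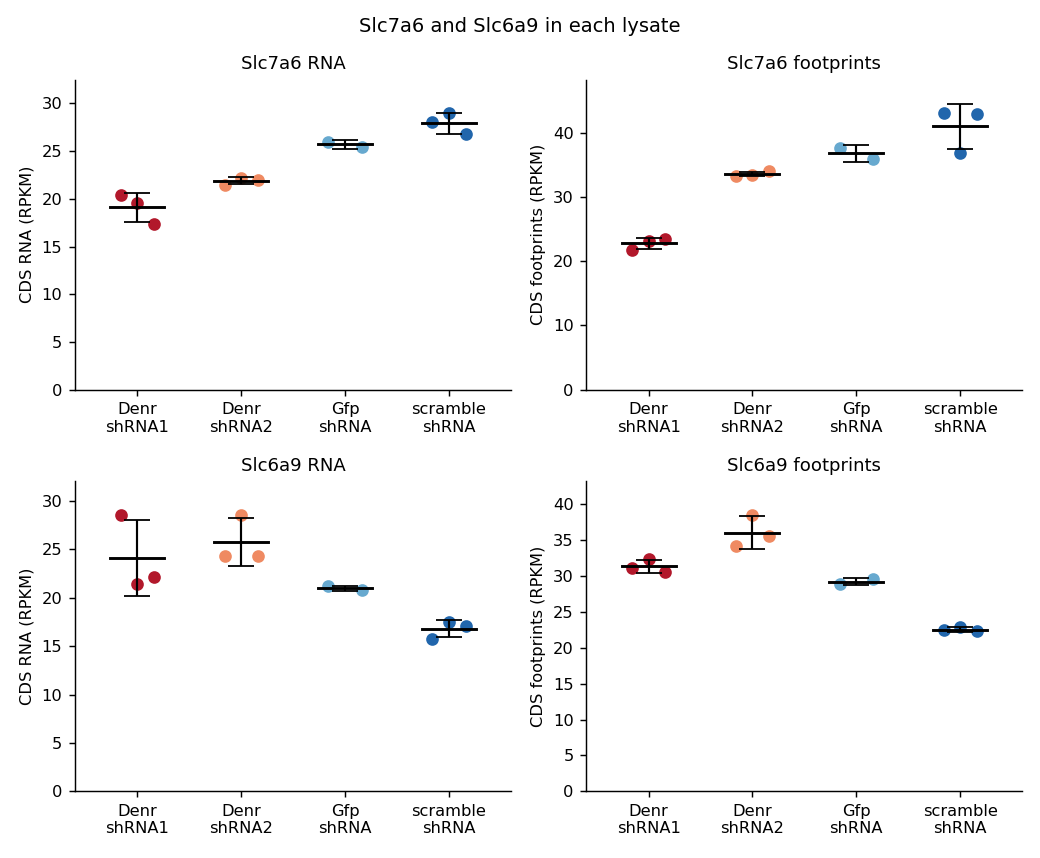
CDS level in RPKM of Slc7a6 (top) and Slc6a9 (bottom) in RNA-seq (left) and footprints (right), 1 point per lysate, with the mean (line) and SD (whiskers) of each shRNA group. Slc7a6 is lower and Slc6a9 higher in all 6 Denr shRNA lysates than in all 5 controls; the shRNA1 lysates are lowest in Slc7a6 footprints (21.8 to 23.5 RPKM), and the Gfp lysates lie above the scramble lysates for Slc6a9.

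None of the other 7 members was called in RNA or footprints. Slc7a1, the arginine and lysine carrier, came nearest. Its footprints were 61.6, 53.5 and 53.2 RPKM with shRNA1 and 56.7, 50.7 and 50.5 with shRNA2, against 61.2 and 56 with Gfp and 66.5, 62.5 and 64.3 with scramble shRNA. In 4 of the 6 knockdown lysates the level was below the lowest control, and the other two overlapped the controls. Its footprints changed by −0.19 ± 0.065 on the log2 scale (adjusted p = 0.101, limma). It passed the threshold against scramble shRNA alone (−0.25, adjusted p = 0.0369), without shRNA1 replicate 1 (−0.23, adjusted p = 0.0573), without Gfp replicate 2 (−0.23, adjusted p = 0.044), among genes with a mean of at least 1 RPKM (adjusted p = 0.0998) and with voom on the recovered reads (adjusted p = 0.0908). With a block for the replicate number these footprints were called as well (−0.19, adjusted p = 0.0572). Over all 10516 genes, scramble shRNA alone called 2651 in footprints and the block 1940, against 1053 in the main fit. The RNA change of Slc7a1 was −0.20 ± 0.085 (adjusted p = 0.274), and −0.25 without shRNA1 replicate 1 (adjusted p = 0.09).

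The heavy chain Slc3a2 had 145 to 174 RPKM of footprints in knockdown and 167 to 183 in control lysates. The log2 change was −0.14 ± 0.057 in footprints (adjusted p = 0.151, limma) and −0.081 ± 0.095 in RNA (adjusted p = 0.719). With shRNA2 alone the footprint change was −0.22 (adjusted p = 0.0726), past the threshold, where 774 of all 10516 genes were called. Against scramble shRNA alone it was −0.18 (adjusted p = 0.0898), also past the threshold, where 2651 were called. The log2 difference of shRNA2 from shRNA1 was −0.28 ± 0.11 in RNA (adjusted p = 0.306) and −0.16 ± 0.057 in footprints (adjusted p = 0.126), and neither was called. With a block for the replicate number both were called (adjusted p = 0.0694 in RNA and 0.0669 in footprints). Slc7a11, its other light chain here, was counted with 35 to 87 CDS reads per RPF-seq and 34 to 63 per RNA-seq library, so that its changes (−0.082 ± 0.14 in RNA and 0.068 ± 0.12 in footprints) were the least precise of the 9 in RNA.

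Because the heavy chain carries light chains to the surface, the level of Slc3a2 relative to the sum of Slc7a6 and Slc7a11 is given as a description. In footprints this ratio was 6.59 ± 0.372 (SD, n = 3) with Denr shRNA1, 4.11 ± 0.0881 (n = 3) with Denr shRNA2, 4.28 ± 0.0846 (n = 2) with Gfp and 4.13 ± 0.204 (n = 3) with scramble shRNA. In RNA it was 5.63 ± 0.419, 4.17 ± 0.107, 4.16 ± 0.337 and 3.82 ± 0.22 in the same order. The shRNA1 lysates stood apart, and the shRNA2 lysates lay within the footprint range of the controls (3.98 to 4.36). Slc7a6 makes up most of the sum (39.3 RPKM of control footprints, beside 2.69 for Slc7a11). The ratio therefore largely restates the Slc7a6 values given above. It leaves out Slc7a5, which was not analysed here, and any light chain outside the member list.

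The neutral amino acid carriers moved little. Slc1a4 changed by −0.037 ± 0.11 in RNA and 0.034 ± 0.066 in footprints, and Slc1a5 by 0.047 ± 0.090 and 0.15 ± 0.088. Slc38a1 was at 0.17 ± 0.071 in RNA and 0.14 ± 0.077 in footprints. Slc38a2, the most abundant of the set, was at −0.090 ± 0.085 and −0.080 ± 0.055. The adjusted p of these 4 ran from 0.24 to 0.909, and in each the groups overlapped. Slc1a4 footprints differed between the controls, being higher with Gfp than with scramble shRNA by 0.24 ± 0.074 (adjusted p = 0.0936, limma). That call was lost without Gfp replicate 1 or 2 or scramble replicate 2 or 3 (adjusted p from 0.18 to 0.277). Against scramble shRNA alone Slc1a5 footprints were higher on knockdown by 0.26 (adjusted p = 0.0775), where 2651 of all 10516 genes were called.

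**Figure D3:**
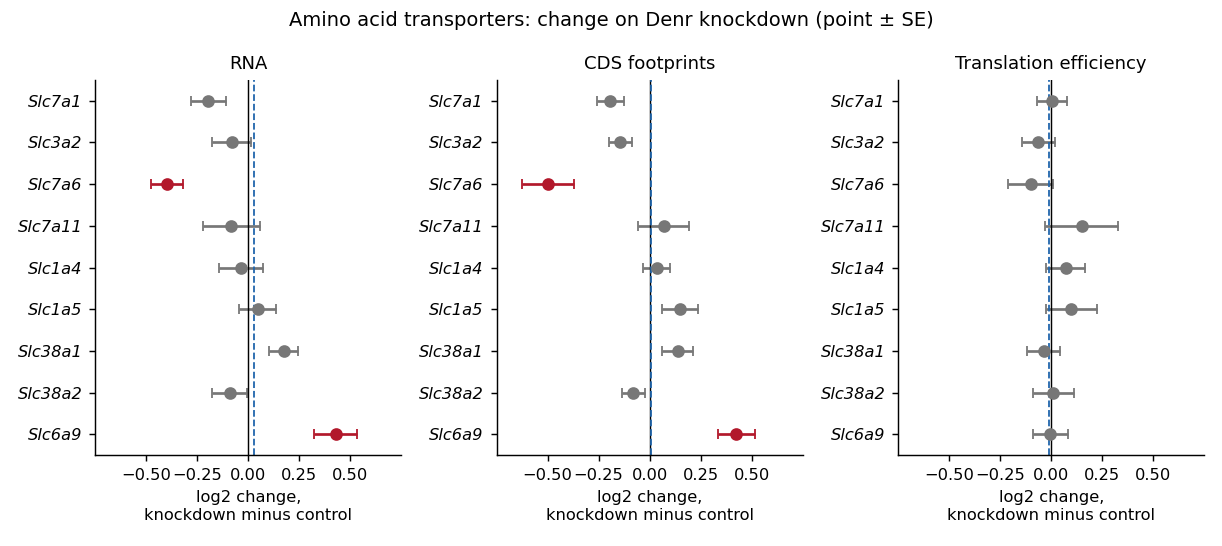
Log2 change (knockdown minus control, point ± SE, 6 against 5 lysates) of each transporter gene in RNA, CDS footprints and translation efficiency, red where called at FDR below 0.1; the dashed line is the median of all genes. Slc7a6 at −0.40 and −0.50 and Slc6a9 at 0.43 and 0.42 are called in RNA and footprints, and in translation efficiency all points lie between −0.10 and 0.15.

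Translation efficiency showed no call. The changes ran from −0.10 ± 0.11 in Slc7a6 to 0.15 ± 0.18 in Slc7a11, with a median of 0.0029 for the members against −0.012 for all genes, and every adjusted p was 0.994 or 0.999. At an unadjusted p under 0.05, 0 of the 9 members were counted either, against 155 genes higher and 545 lower over all. Among all genes 0% rose and 0.475% fell at the FDR used. For Slc7a6 the TE change was −0.28 with shRNA1 alone and 0.080 with shRNA2 alone, and neither was called. For Slc6a9, with 3 uORFs on a scanned transcript whose CDS differed in length from the one counted, the TE change was −0.0037 ± 0.084. For Slc7a1, with a single uORF ending close to the CDS, it was 0.0029 ± 0.075. No member had TE values that separated the groups, a separation that 1.42% of all genes showed. The SE of these TE changes ran from 0.075 in Slc7a1 to 0.18 in Slc7a11. The values do not exclude a TE change larger than its SE in any of the members.

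Footprints on the 5′ UTR were read in the genes covered by 20 or more reads there in 9 or more of the 11 footprint libraries, 5175 genes in all. This filter kept 8 of the 9 members. Slc7a11 did not pass it, with 0 to 14 reads on its 5′ UTR per library. Slc1a4, Slc6a9 and Slc1a5 rose, 3 of the 8, where 23% of the covered genes rose. The median change of the 8 members was 0.32, against 0.30 for all covered genes.

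Slc1a4 had 47.1, 40.5 and 49.7 RPKM of 5′ UTR footprints with shRNA1, 40.8, 43.9 and 38.9 with shRNA2, 26.6 and 31.5 with Gfp and 26.5, 42.6 and 28.8 with scramble shRNA. Only scramble replicate 2 reached the knockdown range. The log2 change was 0.50 ± 0.15 (adjusted p = 0.0533, limma, exact permutation p = 0.0108). Each of these values rests on 72 to 158 reads. The call was lost when any of Denr shRNA1 replicate 3, Denr shRNA2 replicate 2, Gfp replicate 1 or scramble replicate 1 was left out (adjusted p from 0.1 to 0.118).

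Slc6a9 had 14.7, 14.4 and 15.7 RPKM on the 5′ UTR with shRNA1, 16.9, 15.7 and 13.8 with shRNA2, 10.2 and 13.6 with Gfp and 8.79, 12.7 and 11.8 with scramble shRNA. It was the single member whose groups did not overlap on the 5′ UTR, where 5.93% of covered genes were higher without overlap, although 13.8 and 13.6 nearly touch. The change of 0.43 ± 0.15 (adjusted p = 0.0768, limma, exact permutation p = 0.00216) stood beside 0.43 in its RNA and 0.42 in its CDS footprints. It was called in 4 of the 11 fits that left out 1 lysate, and lost without shRNA1 replicate 2 or 3, shRNA2 replicate 1 or 2, Gfp replicate 1 or scramble replicate 1 or 3 (adjusted p up to 0.169).

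Slc1a5 had 50, 55.2 and 48.5 RPKM on the 5′ UTR with shRNA1, 44.9, 50.8 and 41.1 with shRNA2, 33.1 and 33.6 with Gfp and 38.9, 42.7 and 41.5 with scramble shRNA. The groups overlapped in the lowest shRNA2 and the highest scramble lysates. The log2 change was 0.35 ± 0.14 (adjusted p = 0.0973, limma, exact permutation p = 0.00866), and the call held only without shRNA2 replicate 3 or scramble replicate 2 among the fits with 1 lysate left out. For the other covered members the changes were 0.35 in Slc38a1 (0.42 and called without scramble replicate 2, adjusted p = 0.093), 0.28 in Slc3a2, 0.27 in Slc38a2, 0.053 in Slc7a1 and −0.21 in Slc7a6, with adjusted p from 0.128 to 0.837. With a block for the replicate number Slc3a2, Slc38a1 and Slc38a2 were called too (adjusted p = 0.086, 0.0858 and 0.0598). Over all covered genes that block called 2289, against 1198 without it.

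Relative 5′ UTR translation, the log2 ratio of footprints on the 5′ UTR to those on the CDS, was higher on knockdown in all 8 covered members but was called in 0 of them, where 18.1% of covered genes rose. At an unadjusted p under 0.05, 2 of the 8 (Slc1a4 and Slc3a2) were counted, against 1721 of the 5175 covered genes on the higher side. The largest changes were 0.46 ± 0.18 in Slc1a4 (adjusted p = 0.101, limma) and 0.43 ± 0.17 in Slc3a2 (adjusted p = 0.113). Neither has an AUG uORF on the transcripts scanned, but for Slc3a2 only 274 nt were scanned against 483 nt counted. Slc1a4 was called without scramble replicate 2 (0.61, adjusted p = 0.0533) and with a pseudocount of 1 (adjusted p = 0.0945), and Slc3a2 without Gfp replicate 2 (0.49, adjusted p = 0.0706) or scramble replicate 2 (0.51, adjusted p = 0.0839). With a block for the replicate number Slc3a2, Slc1a4 and Slc38a2 were called (adjusted p = 0.0277, 0.0468 and 0.0542). Over all covered genes that block called 2418, against 939 without it. Slc38a2 was at 0.35, Slc7a6 at 0.29, Slc7a1 at 0.25, Slc38a1 at 0.22 and Slc1a5 at 0.21. Slc6a9 was at 0.0025, with footprints up by 0.43 on the 5′ UTR and 0.42 on the CDS. The median of the 8 was 0.27, against 0.33 for all covered genes.

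The RNA counterpart, the ratio of 5′ UTR to CDS reads in RNA-seq, was called for 0 of the 8 members and for 0% of the covered genes. The members ran from −0.19 to 0.13 with a median of 0.047 (all covered genes 0.034), and at an unadjusted p under 0.05 none of the members was counted, against 116 covered genes higher and 105 lower.

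**Figure D4:**
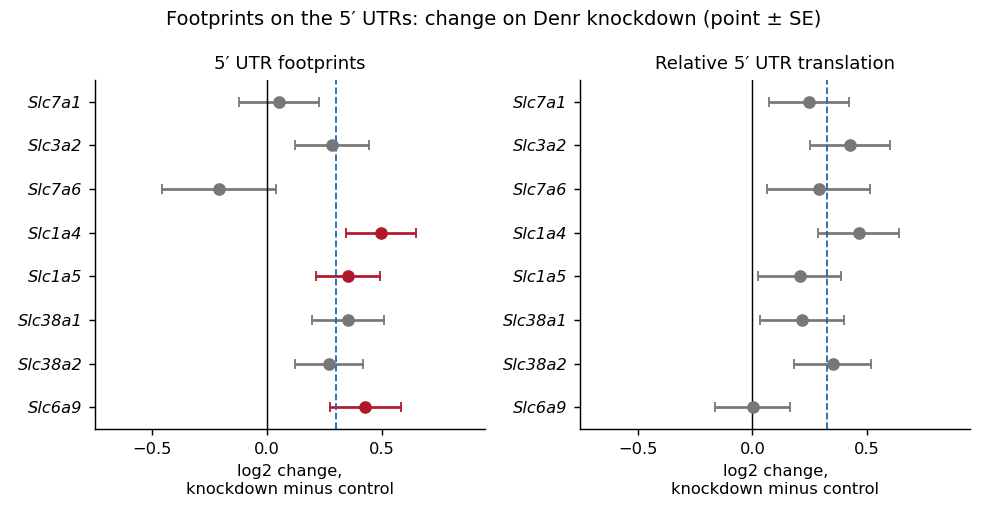
Log2 change (knockdown minus control, point ± SE, 6 against 5 lysates) of footprints on the 5′ UTR and of relative 5′ UTR translation for the 8 members with enough 5′ UTR reads, red where called at FDR below 0.1; the dashed line is the median of all covered genes. Slc1a4 (0.50), Slc6a9 (0.43) and Slc1a5 (0.35) are called for 5′ UTR footprints, and all points of relative 5′ UTR translation lie at or above 0 with none called.

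Other carriers of amino acids were read from a list of 44 genes, 15 of which were in the files. In RNA 1 of the 15 rose, where 2.68% of all genes rose, and in footprints 2 rose, where 5.47% of all genes did, with none falling and none called in TE. Slc38a10, a relative of the SNAT carriers, rose in both (0.32 ± 0.087 in RNA, adjusted p = 0.0854, and 0.25 ± 0.078 in footprints, adjusted p = 0.0846, limma), but with either hairpin alone it was called in neither (adjusted p from 0.113 to 0.29), and leaving out shRNA1 replicate 2 or any lysate of shRNA2 or scramble shRNA ended the RNA call, as 8 of 11 lysates did for footprints. Slc38a7, a lysosomal glutamine and asparagine carrier, rose in footprints by 0.51 ± 0.12 (adjusted p = 0.0317), from 10.5 ± 2.23 RPKM (n = 5) in control to 14.8 ± 1.41 (n = 6) in knockdown lysates, and was at 0.37 ± 0.13 in RNA (adjusted p = 0.162). With shRNA2 alone its footprint change was 0.41 and was not called (adjusted p = 0.163). Of the 15, 14 were on the higher side in footprints, with a median of 0.13 against 0.0072 for all genes. On the 5′ UTR, 1 of 7 covered genes of this list rose, where 23% of covered genes did. It was the lysosomal cystine exporter Ctns, named here after its values were seen.

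ATF4, the activator named for several members, was read with a list of 22 genes of its programme that includes Atf4 itself. Of these, 21 were present. Atf4 RNA was 1417 to 1806 RPKM in knockdown and 1152 to 1243 in control lysates, without overlap, a log2 change of 0.38 ± 0.077 (adjusted p = 0.0266, limma) that was not called with shRNA1 alone (0.39, adjusted p = 0.125). Its CDS footprints changed by 0.24 ± 0.11 and were not called (adjusted p = 0.215). They were called against scramble shRNA alone (0.36, adjusted p = 0.0479), where 2651 of all 10516 genes were called. They were also called without Gfp replicate 2 (0.33, adjusted p = 0.0594) and with a block for the replicate number (0.28, adjusted p = 0.0427). Its footprints on the 5′ UTR rose by 0.51 ± 0.20 (adjusted p = 0.0973), a call lost without scramble replicate 3 (0.34, adjusted p = 0.211) and 7 other lysates in turn, and with either hairpin alone (adjusted p = 0.281 for both). Of the 21 genes 5, Atf4 among them, rose and none fell in RNA, where 2.68% of all genes rose and 0.865% fell. In footprints 3 rose and 2 (Aldh1l2 and Psat1, named after their values were seen) fell, where 5.47% of all genes rose and 4.55% fell, while the medians of 0.038 and 0.017 were close to those of all genes. Nupr1, a stress-induced chromatin protein, rose by 0.53 ± 0.076 in RNA and 0.48 ± 0.11 in footprints (adjusted p = 0.00454 and 0.0242). Trib3, a pseudokinase, rose by 0.61 ± 0.13 and 0.44 ± 0.098 (adjusted p = 0.0279 and 0.0247), with neither called with shRNA2 alone (adjusted p = 0.108 and 0.145). Ddit4, an inhibitor of mTORC1, rose in footprints by 0.44 ± 0.099 (adjusted p = 0.0256), also not called with shRNA2 alone (adjusted p = 0.112). Atf5, whose CDS is reached by reinitiation, rose in RNA by 0.35 ± 0.074 (adjusted p = 0.0322) and was the one gene of the list called in TE, where it fell by 0.56 ± 0.087 (adjusted p = 0.0234). Its RNA call was lost with shRNA1 alone (adjusted p = 0.118) and without scramble replicate 1 or 2 (adjusted p = 0.109 for both). Its TE call was lost with shRNA1 alone (−0.53, adjusted p = 0.333) and against scramble shRNA alone (−0.51, adjusted p = 0.232).

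The promoters of the members were searched for a site that ATF4 can bind. The composite element of C/EBP and ATF factors, spelled TGATGCAA and sought on both strands of RefSeq promoters (GRCm38.p6, from 250 bases before to 50 after the start), was found in 0.895% of 32851 promoters. Promoters were given for 7 members, 11 promoters in all, and the element (capitals) was found in Slc7a11 and Slc1a4.
Slc7a11, chr3:50443663-50443688: tcatgtggcTGATGCAAacctggaga
Slc7a11, chr3:50443644-50443669: ctggagaatTTGCATCAtcatgcagc
Slc1a4, chr11:20332701-20332726: cctcctgcgTTGCATCAtctccagcc
The sequences are written along the minus strand, on which both genes lie. In Slc7a11 the motif began 66 and 47 bases before the start, on opposite strands, and in Slc1a4 it began 4 bases before it. With TGATGNAA, which includes the first spelling and is found in 3.97% of promoters, the same sites were found. Neither gene was called in RNA (−0.082 and −0.037). The Atf4 message rose by 0.38, but its CDS footprints were not called (0.24, adjusted p = 0.215, limma). Whether ATF4 acts on these sites in these cells was not tested.

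The messages whose level followed that of Slc3a2 most closely over the 11 lysates were not Slc7a6 or Slc7a11, its light chains among the members analysed. Chd1l (Pearson r = 0.976), Rgl2 (0.961) and Adprh (0.954) had the most similar log2 RNA profiles among 10515 genes. Slc7a11 ranked 4301st (r = 0.259), on 34 to 63 reads per library, and Slc7a6 4890th (r = 0.175). Slc7a5 was not analysed, and the ranks of other light chains were not read. The values of a lysate share a library and its depth, and these coefficients are a description.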

How the data were processed

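The authors deposited 1 table per library, with an RPKM value for each gene's CDS and another for its 5′ UTR. According to the methods of the study, reads were trimmed with cutadapt, aligned in turn to rRNA, tRNA, cDNA (Ensembl, GRCm38) and genome with Bowtie2 and TopHat, and counted on the regions of isoforms found expressed by Cufflinks (2.2.1 in the submitters' processing notes). The authors dropped poorly covered and mitochondrial genes and scaled RPF-seq and RNA-seq separately by the upper quartile with edgeR. Multi-mapping between related transporters and strand handling are not given in the sources used here. Tables of the study's own comparisons were not used.

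The whole reads behind the RPKM were recovered from the spacing of low values (100% of 231352 CDS and of 228800 finite 5′ UTR values whole within 0.0001) and gave the depth and the filter of 20 reads. No molecular identifiers were used. limma 3.58.1 (lmFit, eBayes with trend, R 4.3.3) was fitted to log2(RPKM + 0.1) over all genes, Benjamini-Hochberg adjusted over all genes. The fits were also run on simulated lysates with independent errors. That run cannot show how deviations shared between lysates, or differences between hairpins, affect the calls. A fold change on this scale understates changes of low genes. Replicates are separate culture dishes. Named genes were the members, Denr, Atf4, called genes of a list of other transporters, up to 4 called genes of an ATF4 list, and the 3 RNA profiles nearest to Slc3a2. The members and lists were chosen with earlier results of these data known. Alternatives were other pseudocounts, filters and scaling, single hairpins, scramble as the sole control, a replicate block, an interaction model for TE, each lysate left out and, added after the data were seen, voom on the recovered reads, which called 389 genes in RNA and 1152 in footprints. Transcripts came from GENCODE vM21 and promoters from RefSeq.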

Additional observations from a re-analysis of the deposited data

Results flagged for a closer look

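Slc7a6 CDS footprints differed between the knockdown hairpins by 0.56 on the log2 scale (shRNA2 higher, adjusted p = 0.000814, limma), and those of Slc6a9 by 0.20 (adjusted p = 0.0972). These differences were flagged because the same target gene was lowered in both groups.

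Single lysates stood far from the rest of their group (Dixon's 95% criterion) in 5 of 102 groups of values tested, and chance alone flags about 1 in 20. For Slc7a11, scramble replicate 3 was high in RNA (log2 level 1.53, next 1.07), and Denr shRNA2 replicate 3 was high in CDS footprints (1.91, next 1.54) and in TE (1.21, next 0.46), on 34 to 87 reads per library. For Slc6a9, Denr shRNA1 replicate 1 was low in TE (0.12, next 0.43), and Gfp replicate 1 was low in the 5′ UTR-to-CDS ratio of RNA (−1.97, next −1.42).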

How the results depend on the processing

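The number of members called kept within 1.5 times of its value in 60 of 72 comparisons with an alternative setting other than leaving out a lysate. The main fits called 0 members in TE, relative 5′ UTR translation and its RNA counterpart. They also called 0 in RNA and TE between the hairpins and between the controls. There, staying at 0 counted as kept, which says nothing of how stable a call is. With Denr shRNA1 alone the number of members called was 1 in RNA, 1 in CDS footprints and 0 in 5′ UTR footprints. Over all genes that fit called 159, 817 and 411. With shRNA2 alone 0 members were called in 5′ UTR footprints, where 1 gene was called over all. Against scramble shRNA alone 5 members were called in CDS footprints and 1 in 5′ UTR footprints. That fit called 2651 of all 10516 genes and 1030 of the 5175 covered genes. A pseudocount of 1 gave 1 call in relative 5′ UTR translation, where 997 covered genes were called. Centring each library on its median gave 1 call between the controls in CDS footprints, where 907 genes were called. With 1 lysate left out, the members called ranged from 1 to 3 in RNA, 1 to 3 in CDS footprints, 0 to 2 in relative 5′ UTR translation and 0 to 4 in 5′ UTR footprints. In CDS footprints they numbered 1 between the hairpins and 0 to 3 between the controls, and in TE 0 throughout. Same-numbered lysates of different shRNAs deviated together on average (mean r over 15 pairs 0.326 in RNA, 0.18 in footprints and 0.226 in TE). Of the 15 pairs, 10, 13 and 10 were over 0.1. In addition, 7, 9 and 9 of the 11 lysates correlated best with a lysate of their own number. The labels do not say whether the numbers pair the lysates, and the main fits do not use them. Deviations shared by same-numbered lysates therefore remain in the spread of the main fits. A replicate block gave 3 members called in CDS footprints, adding Slc7a1 (−0.19, adjusted p = 0.0572, limma), 3 in relative 5′ UTR translation (Slc3a2, Slc1a4 and Slc38a2, adjusted p = 0.0277, 0.0468 and 0.0542), 6 in 5′ UTR footprints, adding Slc3a2, Slc38a1 and Slc38a2 (adjusted p = 0.086, 0.0858 and 0.0598), and between the hairpins 1 in RNA (Slc3a2, −0.28, adjusted p = 0.0694) and 4 in CDS footprints, Slc3a2 among them (−0.16, adjusted p = 0.0669). It also called Atf4 in CDS footprints (0.28, adjusted p = 0.0427) and relative 5′ UTR translation (0.31, adjusted p = 0.0942). Over all genes, the block called 1003 in RNA (373 without it), 1940 in CDS footprints (1053), 2418 in relative 5′ UTR translation (939), 2289 in 5′ UTR footprints (1198), 965 and 1812 between the hairpins in RNA and footprints (217 and 1019) and 157 and 1437 between the controls (74 and 892).

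Over all genes, shRNA1 alone called 159 in RNA, 1 in TE, 5 in relative 5′ UTR translation and 411 in 5′ UTR footprints, shRNA2 alone 9 and 1 in the last 2 of these, and scramble shRNA alone 940 in RNA, 2651 in CDS footprints, 10 in TE (50 with all lysates) and 514 in relative 5′ UTR translation. The filter on 5′ UTR RPKM called 131 in relative 5′ UTR translation. Leaving out a lysate gave 139 to 734 in RNA, 484 to 1946 in CDS footprints, 14 to 72 in TE, 38 to 1773 in relative 5′ UTR translation, 383 to 1745 in 5′ UTR footprints, 61 to 245 and 560 to 680 between the hairpins and 1 to 47 and 154 to 1300 between the controls (RNA, then footprints). Centring gave 191 genes higher and 107 lower in RNA (282 and 91 without it), and 482 and 425 between the controls in footprints (566 and 326). The cause of these shifts was not tested.

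None of the values that changed sign had been called. With shRNA1 alone RNA changes were 0.0142 in Slc1a4, 0.0571 in Slc3a2 and 0.0569 in Slc7a11, and TE changes were −0.0361 in Slc1a5, −0.0323 in Slc7a11 and −0.0214 in Slc7a1. With shRNA2 alone TE changes were 0.0089 in Slc38a1, 0.0441 in Slc6a9 and 0.0802 in Slc7a6, 5′ UTR footprints were −0.13 in Slc7a1 and 0.14 in Slc7a6 (−0.21 with all lysates), and relative 5′ UTR translation was −0.0757 in Slc6a9. Against scramble shRNA alone they were 0.042 for Slc1a4 RNA, −0.11 for Slc7a1 5′ UTR footprints, 0.0166 and −0.0345 for TE of Slc6a9 and Slc7a1, and −0.021 and −0.11 for relative 5′ UTR translation of Slc1a5 and Slc6a9. The block gave −0.0187 for Slc7a1 TE and −0.0099 for Slc6a9 relative 5′ UTR translation, a pseudocount of 1 gave 0.00067 and −0.0129 for the TE and relative 5′ UTR translation of Slc6a9, and centring gave 0.0157 for its TE. With 1 lysate left out the ranges that crossed 0 were −0.11 to 0.0126 (Slc1a4), −0.0057 to 0.0902 (Slc1a5) and −0.14 to 0.0217 (Slc7a11) in RNA, −0.0013 to 0.0771 (Slc1a4) and −0.0214 to 0.11 (Slc7a11) in CDS footprints, −0.0849 to 0.12 (Slc7a1) in 5′ UTR footprints, −0.0855 to 0.0781 (Slc6a9) in relative 5′ UTR translation, and in TE −0.0276 to 0.0477 (Slc7a1), −0.0403 to 0.07 (Slc38a2), −0.0783 to 0.0055 (Slc38a1), −0.00098 to 0.16 (Slc1a5) and −0.0346 to 0.0596 (Slc6a9). Depth limits Slc7a11 most.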
